A study of Homo sapiens with 4 samples.

Results

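The 9 genes of retinoic acid signalling described here were followed through RNA-seq libraries of NT2 cells: the receptors RARA, RARB and RARG, the binding proteins CRABP1 and CRABP2, and the enzymes ALDH1A2, CYP26A1, CYP26B1 and DHRS3. They were taken by gene symbol, and all 9 were found once each among the 62696 rows of every count table. NT2, or NTERA-2, is a human embryonal carcinoma line that forms neurons when it is treated with retinoic acid. The labels give 1 library of cells carrying an empty vector, with a wild type genotype and here called the control, and 3 libraries of cells with a HYDIN2 knockdown, numbered as replicates 1 to 3. All cells were grown in the same serum-containing medium, and no retinoic acid treatment is named. The labels name neither the knockdown reagent nor a clone, and do not say whether the replicates were separate cultures. Any spread between them may therefore be technical. The count columns carry other names, of a LacZ control and of GKAP_KIF27 sets, so the perturbation is known from the labels alone.

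Retinoic acid is made from retinol, which is first oxidised to retinal and then to the acid by retinal dehydrogenases such as ALDH1A2. Cellular retinoic acid-binding proteins carry it in the cytosol, CYP26 hydroxylases degrade it, and DHRS3 reduces retinal back to retinol. In the nucleus the acid binds retinoic acid receptors, which pair with retinoid X receptors on direct-repeat DNA elements. RARB, CYP26A1 and DHRS3 are textbook targets of their own pathway, so their RNA is widely used as a readout of it.

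Matches to direct-repeat elements are shown for RARB, which gave the larger of the 2 consistent differences below. They are also shown for CYP26A1, the other member with such a match. RefSeq windows on GRCh38.p14, from 250 bases before to 50 after each annotated start, gave 18 windows for the 9 genes. Both strands were searched for pairs of half-sites (AGGTCA or GGGTCA, with AGTTCA or GGTTCA as further forms) with 5 bases between them, named DR5. A DR5 was found in 2 of the 18 windows, and in 31 of 35116 windows of all genes (0.0883%). The first lies 53 to 37 bases before a RARB start, within chr3:25428160-25428262 on the plus strand. The other lies 90 to 74 bases before a CYP26A1 start, within chr10:93073797-93073825 on the plus strand, and reads as a repeat on the opposite strand. The RARB stretch lies in no annotated GENCODE exon but within an intron of a longer RARB transcript, and the CYP26A1 stretch overlaps an annotated exon of a CYP26A1 transcript. Capitals mark the elements.
RARB: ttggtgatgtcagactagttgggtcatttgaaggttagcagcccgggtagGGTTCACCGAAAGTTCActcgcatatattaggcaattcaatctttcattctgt
CYP26A1: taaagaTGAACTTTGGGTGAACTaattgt
Read on its opposite strand, the CYP26A1 element is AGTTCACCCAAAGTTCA. Repeats with 1 or 2 bases between the half-sites (DR1 and DR2) were in 0 of the 18 windows, and in 0.131% and 0.0399% of all windows. A match describes letters in a window only, and gene counts do not tell which of the 4 listed RARB starts was used.

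The control library had 25181737 counts and the labelled knockdown libraries had between 28552070 and 62904698. HYDIN2, the gene named in the knockdown label, had 12 counts in the control and 150, 112 and 11 counts in labelled knockdown replicates 1, 2 and 3. On the depth-scaled level it was 0.50 CPM against 2.41, 1.88 and 0.352 CPM. The ratios to the control were 4.82 (2.11 to 13.5) and 3.75 (1.62 to 10.7) in replicates 1 and 2, whose intervals lay above 1, and 0.704 (0.205 to 2.87) in replicate 3. HYDIN2 thus went against the knockdown label in replicates 1 and 2, and its ratio was not resolved from 1 in replicate 3. Whether the labels or the column names are right cannot be told here, so every direction is that of libraries labelled knockdown. CPM is a count relative to the library total, which was scaled by trimmed mean of M-values (TMM) factors. All 10 embryonal carcinoma markers, POU5F1, NANOG and SOX2 among them, were above 1 CPM in every library, but their levels differed. In replicate 3, SALL4 (304 against 235 CPM) and PODXL (3866 against 1838 CPM) were above the control. The others were below it there, such as POU5F1 (19.4 against 42.8 CPM) and DPPA4 (604 against 1398 CPM). In replicates 1 and 2 they went both ways, with NANOG at 820 and 817 against 502 CPM and L1TD1 at 241 and 239 against 472 CPM. The 3 blood markers summed to at most 0.273 CPM. Replicate 3 stood apart: 21.6% of 15880 genes differed at least 2-fold between it and replicate 1, against 0.302% between replicates 2 and 1. In bulk RNA, fewer cells of a type and less RNA per cell cannot be told apart.

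Against the control, RARB was higher and CRABP2 was lower by at least 2-fold in all 3 labelled knockdown libraries. RARB is the receptor gene most responsive to the acid, and CRABP2 delivers the acid to the receptors. Genes entered this comparison when the average of both group means was at least 1 CPM, which 8 members passed and ALDH1A2 did not. RARB was thus 1 of 8 members that were higher, where 3.65% of 15880 genes were. CRABP2 was 1 of 8 that were lower, where 2.72% of genes were. With 1 control library there is no replicate check on the control side, so the rule describes these libraries. edgeR's quasi-likelihood test, whose spread comes from the labelled knockdown libraries, called 0 of 9 members and 0% of 26029 genes after Benjamini-Hochberg adjustment. Its unadjusted p was under 0.05 for RARB, CRABP1 and CRABP2, 3 of 9 members, beside 11.6% of all genes. DESeq2 also called 0 members, and 1.72% of 15725 genes, and limma's voom called 0 of either. Without replicate 3, edgeR's spread came from replicates 1 and 2 alone, and it called 9 of 9 members and 44.7% of all genes. The 2-fold rule then also held for CYP26A1, where 9.76% of genes were higher. Without overlap, 2 of 8 members were above the control in all 3 libraries (30.1% of genes were) and 3 of 8 were below it (34.2% of genes were).

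**Figure D1:**
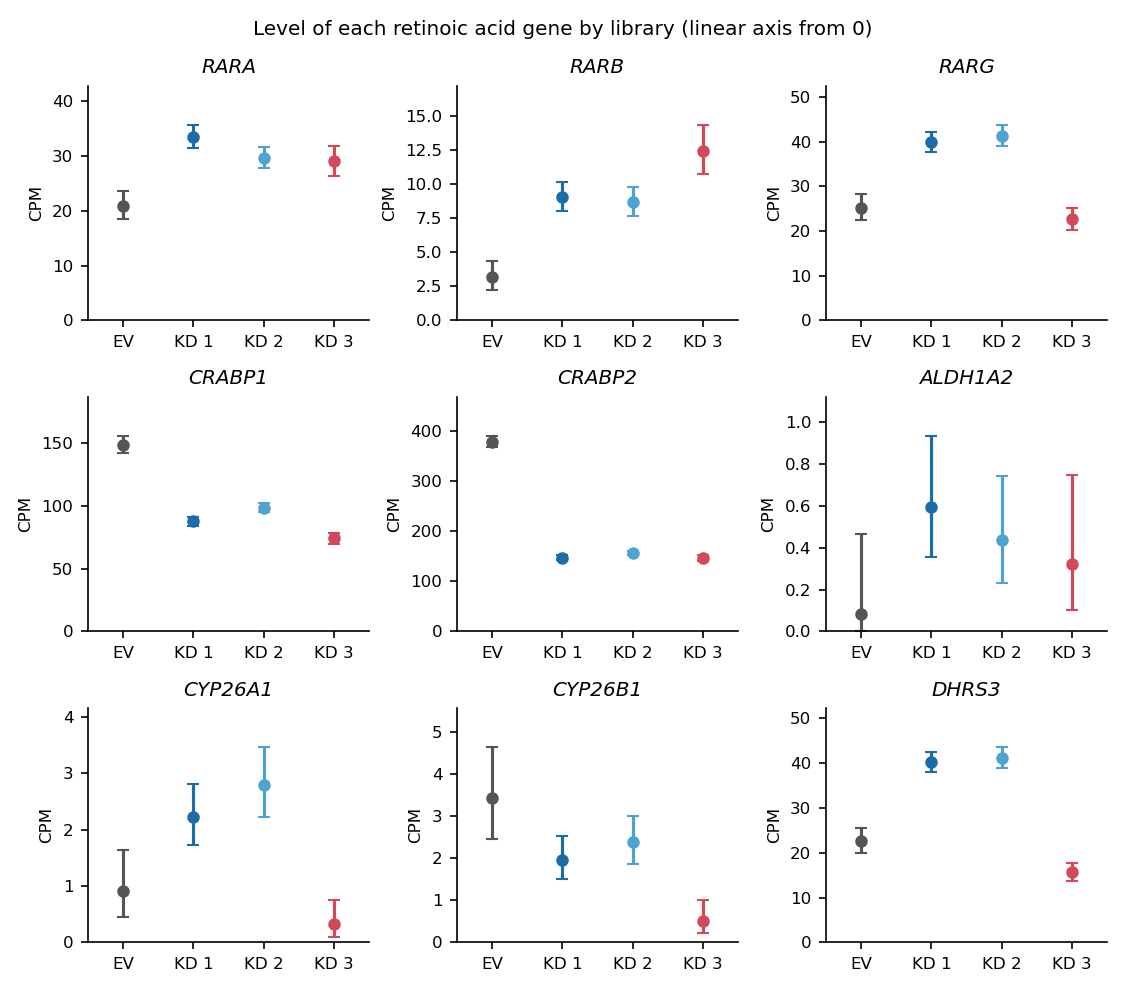
Level of each of the 9 genes in CPM (linear axes from 0) in the control library (EV) and labelled knockdown replicates 1 to 3 (KD 1 to KD 3). Points are single libraries and bars are 95% exact Poisson intervals on counts halved for read pairs, which cover counting error only; RARB is above EV and CRABP2 below it in all 3 KD libraries, while DHRS3, CYP26A1 and RARG split KD 3 from KD 1 and KD 2.

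Among the receptors, RARB differed most from the control. RARB (ENSG00000077092.20; GRCh38 chromosome 3, 25174332 to 25597932, plus strand) had 76 counts in the control and 563, 517 and 389 counts in labelled knockdown replicates 1, 2 and 3. These correspond to levels of 3.17 CPM and of 9.04, 8.66 and 12.5 CPM. All 3 labelled knockdown libraries were above the control, and replicate 3, which was the lowest in several other members, was the highest here. The ratios were 2.86 (95% exact binomial interval 2.03 to 4.13), 2.74 (1.94 to 3.95) and 3.93 (2.76 to 5.71). On the log2 scale the mean difference was 1.63 ± 0.28 (SD, n = 3), with an adjusted p of 0.362 from edgeR and 0.0706 from DESeq2. Removing smooth trends with the length and GC content of transcripts left it at 1.69 ± 0.33 (SD, n = 3). RARB shares exon bases with TOP2B on the other strand, and the strand setting of the counting is not given in the sources used here.

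RARA and RARG, the widely expressed receptors of the family, differed less. RARA (ENSG00000131759.18; chromosome 17, 40309192 to 40357643, plus strand) had 20.9 CPM in the control and 33.5, 29.6 and 28.97 CPM in replicates 1 to 3. It was above the control in all of them, by a mean log2 difference of 0.55 ± 0.11 (SD, n = 3), with an edgeR adjusted p of 0.489. It shares exon bases with RARA-AS1 on the other strand. RARG (ENSG00000172819.17; chromosome 12, 53210567 to 53232980, minus strand) stood at 25.2 CPM in the control, 40.0 and 41.3 CPM in replicates 1 and 2, and 22.6 CPM in replicate 3. Its groups overlapped, and its mean log2 difference of 0.40 ± 0.49 (SD, n = 3) did not exceed its spread. It was 0.28, 0.25 and 0.69 without replicates 1, 2 and 3 in turn.

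The make-up of the receptor family does not depend on scaling between libraries. RARB took 6.42% of the counts of the 3 receptor genes in the control (4.58% to 8.70%, exact 95% Clopper-Pearson limits). Its share was 10.96% (9.79% to 12.3%), 10.9% (9.63% to 12.2%) and 19.5% (17.0% to 22.0%) in replicates 1 to 3, each above the control interval. RARG took 51.2%, 48.4% and 51.9% in the control and replicates 1 and 2, but 35.3% (32.3% to 38.4%) in replicate 3. Per kilobase of exon, RARB remained the lowest of the 3 receptors in every library, at 0.856 CPM per kb in the control and 2.45, 2.34 and 3.37 CPM per kb in the replicates.

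**Figure D2:**
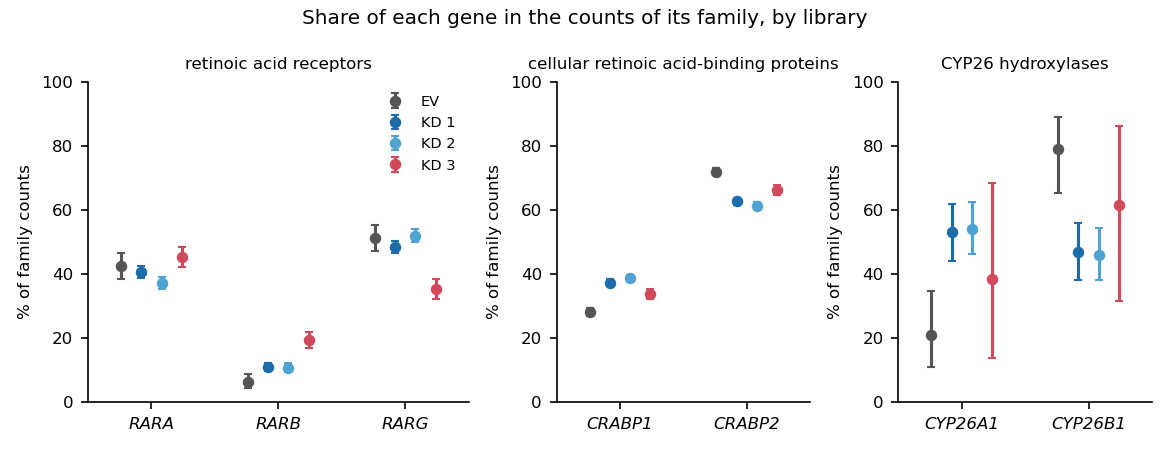
Share of each gene in the summed counts of its family (linear axis, percent), for the receptors, the binding proteins and the CYP26 enzymes, in the control library (EV) and labelled knockdown replicates 1 to 3 (KD 1 to KD 3). Points are single libraries and bars are 95% Clopper-Pearson intervals on halved counts; the RARB share runs from 6.42% in EV to 19.5% in KD 3, and the CRABP2 share from 71.8% in EV to 61.4% in KD 2.

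Both binding protein genes were lower than in the control. CRABP2 (ENSG00000143320.9; chromosome 1, 156699606 to 156705816, minus strand) had 9104 counts there and 9180, 9358 and 4569 counts in replicates 1 to 3. Scaled for depth, these are levels of 379 CPM and of 147, 157 and 146 CPM. The 3 labelled knockdown libraries lay close together and all below the control, by 2.57-fold, 2.42-fold and 2.59-fold. The mean log2 difference was -1.34 ± 0.05 (SD, n = 3), with an adjusted p of 0.358 from edgeR and 0.0515 from DESeq2. With length and GC trends removed, the log2 differences were -0.98, -0.96 and -0.76, and CRABP2 no longer met the 2-fold rule. After that removal 1 of 8 members, RARB, was higher (2.61% of genes were) and 0 were lower (1.73% of genes were).

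CRABP1, which binds the acid and is linked to its turnover, was lower by less. CRABP1 (ENSG00000166426.8; chromosome 15, 78340324 to 78348230, plus strand) had 149 CPM in the control and 87.6, 98.7 and 74.3 CPM in replicates 1 to 3. All 3 were below the control, by a mean log2 difference of -0.78 ± 0.21 (SD, n = 3), with an edgeR adjusted p of 0.388. CRABP1 shares exon bases with an opposite-strand gene model, AC011270.2. Trend removal brought this difference to -0.37 ± 0.05 (SD, n = 3). Both genes make short transcripts: only 4.54% of genes entering had a shorter longest transcript than CRABP1 and 7.26% than CRABP2. Across genes, which are not independent replicates, Spearman's correlation between log2 difference and transcript length was 0.347, 0.298 and 0.460 in replicates 1 to 3. CRABP2 took 71.8% of the counts of the pair in the control (70.7% to 72.9%) and 62.7%, 61.4% and 66.3% in replicates 1 to 3, the highest of whose upper bounds was 67.9%. CRABP2 and CRABP1 stayed the most abundant members per kilobase in every library, at 345 and 150 CPM per kb in the control.

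**Figure D3:**
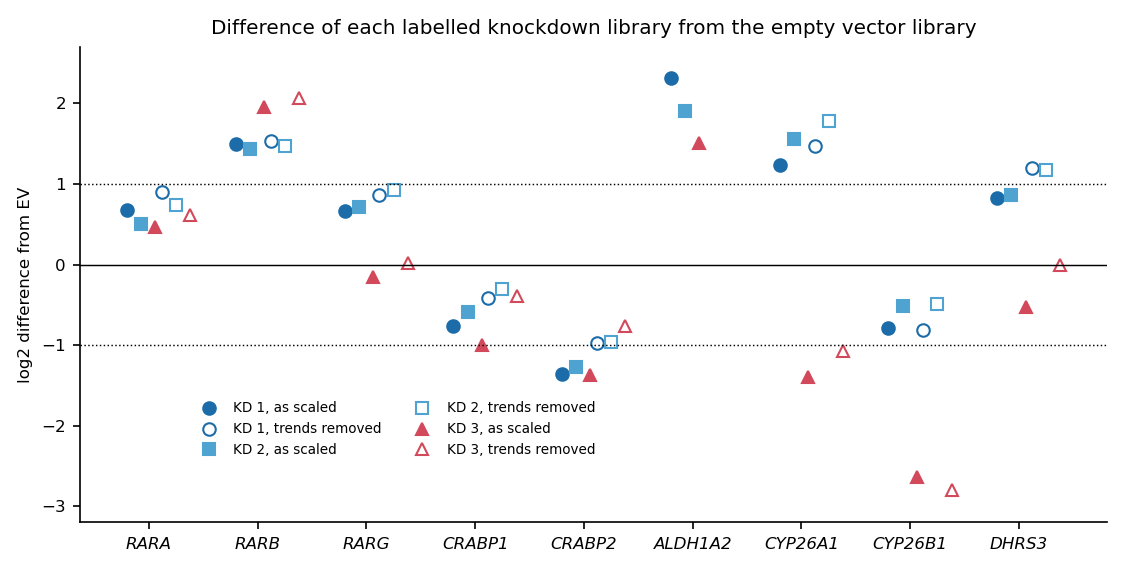
Log2 difference in CPM of labelled knockdown replicates 1 to 3 (KD 1 to KD 3) from the control library (EV) for each gene, as scaled (filled) and after removing trends with transcript length and GC content (open; not computed for ALDH1A2). Dotted lines mark 2-fold; all 3 RARB points stay above the upper line, while the CRABP2 points move from below the lower line to just inside it.

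The enzyme genes split replicate 3 from replicates 1 and 2. CYP26A1 and CYP26B1 hydroxylate the acid, and DHRS3 lowers its supply by reducing retinal. All 3 were at least 2-fold lower in replicate 3 than in each of the others, and no other entering member was at least 2-fold apart within the labelled knockdown group. These are 3 of 8 members, where 21.6% of genes were 2-fold apart between replicates 3 and 1, and 22.9% between replicates 3 and 2.

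CYP26A1 (ENSG00000095596.12; chromosome 10, 93073475 to 93077890, plus strand) had 22 counts in the control and 138, 167 and 10 counts in replicates 1 to 3. The levels were 0.916 CPM and 2.22, 2.80 and 0.320 CPM. Replicates 1 and 2 were higher than the control, with ratios of 2.42 (1.27 to 5.07) and 3.05 (1.63 to 6.39). The ratio in replicate 3 was 0.349, with an interval from 0.0951 to 1.09 that included 1. CYP26A1 shares exon bases with AL358613.3, a processed transcript of the same strand. The mean log2 difference of 0.47 ± 1.62 (SD, n = 3) did not exceed its spread, and without replicate 3 it was 1.40.

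CYP26B1 (ENSG00000003137.9; chromosome 2, 72129238 to 72148038, minus strand) had 82 counts in the control and 122, 142 and 16 counts in replicates 1 to 3. Its levels of 1.96, 2.38 and 0.512 CPM were all below the 3.42 CPM of the control, replicate 3 by far the most. The ratios were 0.574 (0.380 to 0.874), 0.696 (0.468 to 1.05) and 0.150 (0.0607 to 0.324), so the interval in replicate 2 included 1. The mean log2 difference was -1.31 ± 1.15 (SD, n = 3), with an edgeR adjusted p of 0.651. It was -0.65 without replicate 3. Within the pair of hydroxylases, CYP26A1 took 21.2% of counts in the control (11.1% to 34.7%), and 53.1% and 54.0% in replicates 1 and 2 (44.1% to 61.9% and 46.3% to 62.6%). Replicate 3 had only 26 counts for the pair, and its interval of 13.9% to 68.4% covered all the other values.

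DHRS3 (ENSG00000162496.9; chromosome 1, 12567910 to 12617731, minus strand) stood at 22.7 CPM in the control, 40.2 and 41.2 CPM in replicates 1 and 2, and 15.7 CPM in replicate 3. Its ratios were 1.77 (1.56 to 2.03), 1.82 (1.59 to 2.08) and 0.691 (0.578 to 0.822), so replicate 3 lay below the control and the others above it. The mean log2 difference of 0.38 ± 0.79 (SD, n = 3) did not exceed its spread. Leaving out replicates 1, 2 and 3 in turn gave 0.16, 0.15 and 0.84. After trend removal the log2 differences were 1.19, 1.18 and 0.00, so DHRS3 then passed 2-fold in replicates 1 and 2.

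ALDH1A2 (ENSG00000128918.15; chromosome 15, 57953424 to 58497866, minus strand), the synthesis enzyme, was near the limit of detection. It had 2 counts in the control and 37, 26 and 10 counts in replicates 1 to 3, or 0.0833 CPM against 0.594, 0.436 and 0.320 CPM. The interval of the control level ran up to 0.464 CPM and overlapped that of each replicate, so a difference was not clearly resolved at this depth. The ratio intervals in replicates 2 and 3 included 1, and that in replicate 1 ran from 1.10 to 289. ALDH1A2 shares exon bases with AQP9 on the other strand. Without the strand setting of the counting, whether its counts include reads of AQP9 cannot be told.

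Per kilobase of exon, the order of levels was CRABP2, CRABP1, DHRS3, RARG, RARA, RARB, CYP26B1, CYP26A1 and ALDH1A2 in the control. Of these neighbours, RARG and RARA had overlapping counting intervals, as did RARB and CYP26B1, and CYP26B1 and CYP26A1. In replicates 1 and 2 CYP26A1 stood above CYP26B1, at 0.746 against 0.391 and at 0.941 against 0.474 CPM per kb, with intervals that did not overlap. In replicate 3 RARA stood above RARG, at 6.12 (5.57 to 6.71) against 4.41 (3.96 to 4.89) CPM per kb, with intervals that did not overlap. DHRS3 stood below RARA there, at 5.16 CPM per kb, with intervals that did.

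Other marker lists also differed between the libraries. The neural list, PAX6 among its 10 genes, summed to 24.2 CPM in the control and to 79.2, 73.8 and 52.1 CPM in replicates 1 to 3, with 2 of its genes, PAX6 among them, at 0 counts in the control. In replicate 3 MAP2, at 34.5 CPM against 9.16 CPM in the control, made up most of that sum. Like MAP2, PAX6 (2.95 against 0 CPM), TUBB3 (2.02 against 1.12 CPM) and STMN2 (0.512 against 0.333 CPM) were above the control there. DCX was at 11.5 against 11.7 CPM, and ELAVL3 and ELAVL4 were below the control. SOX1 and NEUROD1 were also below it, but had at most 4 counts in either library. The endoderm list of 5 genes summed to 4.33, 9.77, 7.94 and 19.8 CPM in the same order. Stromal markers (7 genes) summed to 504 CPM in the control and to 645, 634 and 420 CPM in the replicates. THY1 was the largest of them, at 362 CPM in the control and 210.0 CPM in replicate 3. In that replicate COL1A1 (109.8 against 76.5 CPM), PDGFRB (73.6 against 34.1 CPM) and COL3A1 (6.21 against 4.04 CPM) were above the control. The part of these lists in the RARB and CRABP2 differences was not tested.

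The rest of the pathway was read from 3 lists holding 55 genes, of which 36 entered. At least 2-fold in all labelled knockdown libraries, 5 were higher (3.65% of all genes were) and 1 was lower (2.72% of all genes were); HOXB1 made a second lower gene without replicate 1. edgeR called 0 of the 46 it tested, with 10 at an unadjusted p under 0.05 (11.6% of all genes were). DESeq2 called 3, and 1.72% of all genes. The median of the mean log2 differences was 0.13 over the 36 genes and -0.02 over all genes.

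Among the higher genes, 3 partners of the receptors are described. NCOA1, a coactivator, had 35.1 CPM in the control and 85.7, 82.8 and 91.3 CPM in replicates 1 to 3. CREBBP, an acetyltransferase recruited by coactivators, had 86.8 CPM against 310, 276 and 416 CPM. NRIP1, a corepressor that binds liganded receptors and is itself induced by the acid, had 51.0 CPM against 163, 140 and 227 CPM. These 3 genes are among those that met the 2-fold rule, which itself places every replicate above the control. DESeq2's adjusted p was 0.00359 for CREBBP, 0.0127 for NRIP1 and 0.0747 for NCOA1, with 0.358 from edgeR for each.

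The list of receptors and cofactors had a median log2 difference of 0.90 over 12 of its 13 genes, and trend removal lowered it to 0.46. CREBBP, NRIP1 and NCOA1 have longer transcripts than at least 89.1% of genes entering, and after trend removal CREBBP and NRIP1 still met the 2-fold rule. None of the 3 retinoid X receptors, which pair with the members, met the rule: RXRA, RXRB and RXRG had mean levels of 37.8 ± 13.2, 5.25 ± 1.99 and 1.25 ± 0.20 CPM (SD, n = 3) against 28.2, 4.92 and 1.33 CPM in the control.

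Among genes for retinoid synthesis, transport and storage, 12 of 18 entered, with a median log2 difference of -0.51. By library the medians were -0.13, -0.29 and -0.91 in replicates 1 to 3, and trend removal brought the median to -0.17. Of the 12 genes, 0 were higher (3.65% of all genes were) and 1 was lower (2.72% of all genes were). The lower gene was FABP5, a fatty acid-binding protein that can also carry retinoic acid, with 17.4 CPM in the control and 4.10, 5.04 and 6.47 CPM in replicates 1 to 3. Its DESeq2 adjusted p was 0.0415 and its edgeR adjusted p 0.358. Only 6.74% of genes entering had a shorter longest transcript, and after trend removal its log2 differences were -1.76, -1.53 and -0.89, outside the rule.

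Of the known retinoic acid response genes other than the members, 14 of 26 entered, with a median log2 difference of 0.18. Of these, 2 were higher (3.65% of all genes were) and 0 were lower (2.72% of all genes were). The higher genes were NRIP1 and NR2F2, an orphan nuclear receptor, which had 0.916 CPM in the control and 2.96, 2.31 and 7.04 CPM in replicates 1 to 3. NR2F2 met the rule after trend removal as well, with an edgeR adjusted p of 0.444 before it. Of 29 genes with a DR5 in a promoter window, 19 were found by symbol among the counted genes and 11 entered, with a median log2 difference of -0.05. RARB and CFLAR, 2 of the 11, were higher (3.65% of all genes were). The difference of RARB was itself a reason for showing the element, so RARB adds no separate result here. BATF2, 1 of the 11, was lower (2.72% of all genes were). CFLAR and BATF2 are named after their values were seen.

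**Figure D4:**
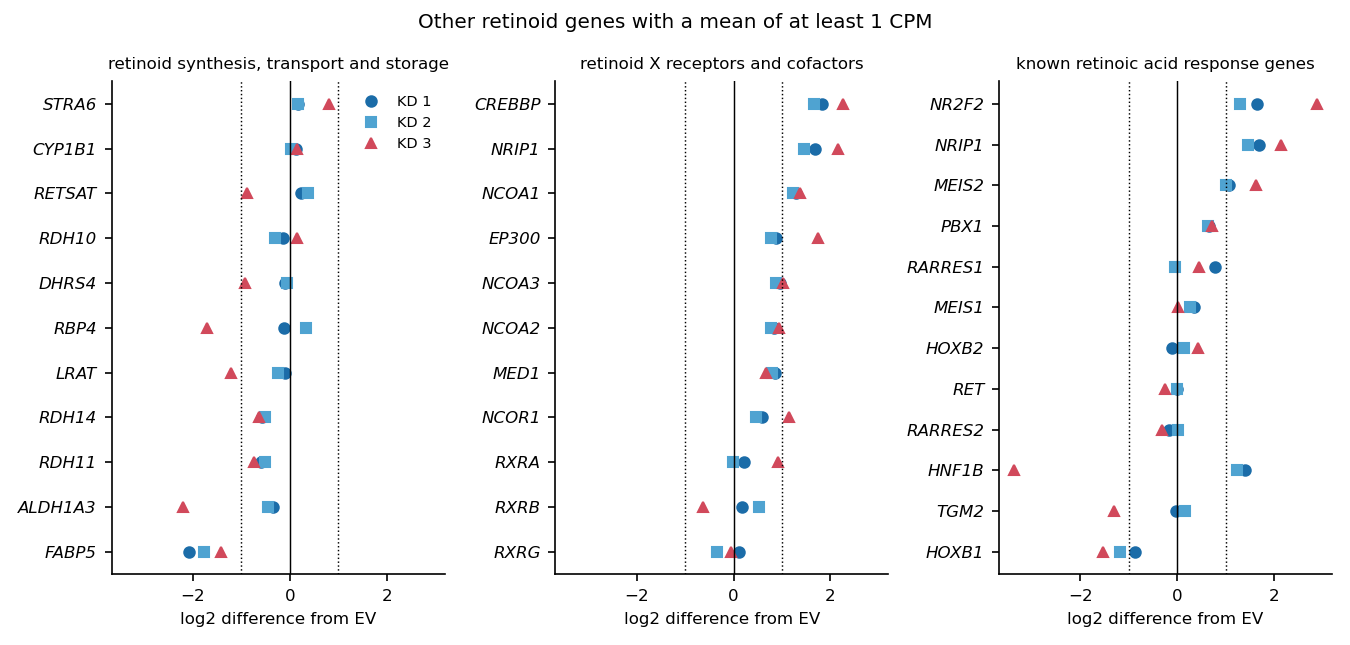
Log2 difference in CPM of labelled knockdown replicates 1 to 3 (KD 1 to KD 3) from the control library (EV) for the entering genes of 3 retinoid lists; points are single libraries and dotted lines mark 2-fold. CREBBP, NRIP1, NCOA1 and NR2F2 lie to the right of the upper line in all 3 libraries and FABP5 to the left of the lower line; NRIP1 is in 2 lists, and a few list genes are not drawn.

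The patterns of the 2 members that met the rule were set beside those of 14817 genes with a symbol and a mean of at least 1 CPM, by Euclidean distance of log2 CPM centred over the 4 libraries. Nearest to RARB were LHX4 (distance 0.0483), CADM2 (0.0909) and FOSL2 (0.0919), and 251 genes lay within 0.50. Nearest to CRABP2 were ECI2 (0.0125), IMPA2 (0.0507) and SOD1 (0.0521), and 684 genes lay within 0.50. With 4 libraries many genes share a pattern, and the measure is a description only.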

How the data were processed

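Raw counts, as deposited by the authors, came as 1 table for each library. The submitters' processing notes name STAR 2.7.11b, featureCounts 2.0.6, DESeq2 and GRCh38; the annotation release and strand setting are not given in the sources used here. Per the labels' protocols, ribosomal RNA was depleted and libraries were strand-specific. Per the file headers, the columns carry the names of a LacZ control and of GKAP_KIF27 sets, unlike the sample labels; tables were assigned by the series record. Between 65.2% and 68.0% of nonzero counts were even, so counting intervals (95%) use counts divided by 2; they cover counting error only.

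CPM used TMM factors from edgeR 4.0.16 (R 4.3.3) over genes kept by filterByExpr, from 0.953 to 1.09, and log2 CPM a prior count of 2. edgeR's quasi-likelihood test, DESeq2 1.42.0 and limma 3.58.1 (voom) were fitted over all genes; the lone empty vector library is assumed to vary like the others. Positions and lengths came from GENCODE 29 (58269 identifiers matched, 4427 did not). Trends were removed by lowess (span 0.3) on the longest transcript's length, then GC content. The rule and tests were tested on simulated data.

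Members and lists were chosen with earlier results of these data known. Named are all members, list genes meeting the 2-fold rule, and the 3 nearest patterns to each member meeting it; the values of some list genes, which stay in the counts and medians, are not reported here.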

Additional observations from a re-analysis of the deposited data

How the results depend on the processing

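No paired analysis was possible because a single control library carries no number shared with the others. RARB met the 2-fold rule under every alternative run. CRABP2 met it under all but trend removal, which left 0 members lower. Leaving a replicate out, 1.5-fold and a mean CPM of 0.1 only loosen the rule. Those runs could not have removed RARB or CRABP2. The number of higher members was 2 with a mean CPM of 0.1 (ALDH1A2 added), where 6.04% of all genes were higher. It was 1 to 2 when each replicate was left out (CYP26A1 added without replicate 3, where 9.76% of all genes were higher). At 1.5-fold, 2 members were lower (CRABP1 added), where 9.61% of all genes were. edgeR called 0 members without replicate 1 (0.0737% of all genes were called) or replicate 2 (0.169%). It called 9 without replicate 3, when the spread came from replicates 1 and 2 alone and 44.7% of all genes were called. Of 36 list genes, 11 were higher at 1.5-fold (10.0% of all genes were) and 3 after trend removal (2.61%). Those that were lower numbered 3 at 1.5-fold (9.61%) and 0 after trend removal (1.73%), 2 of 48 with a mean CPM of 0.1 (3.89%), and 1 to 2 when each replicate was left out (2 of 37 without replicate 1, 3.05%). The 580 higher and 432 lower genes of the whole table became 1605 and 1035 with a mean CPM of 0.1, 377 and 254 with a mean CPM of 5, and 1590 and 1526 at 1.5-fold. They were 1542 and 846 without replicate 3, and trend removal left 268 lower. Of 89 recomputed mean differences of single members, 84 moved by no more than 1 SD. Leaving out 1 of 3 replicates cannot move their mean by more than 1 SD, so those runs could not count as moved. The 5 that moved further were RARA, CRABP1 and CRABP2 after trend removal, CRABP2 with total counts (-1.25) and ALDH1A2 at a prior count of 5 (1.49). CYP26A1 was the 1 member whose mean changed sign, between -0.08 and 1.40 when a replicate was left out. TMM factors over all genes were tried after seeing the data. With 22 and 10 counts for CYP26A1, and 2 for ALDH1A2, depth limits any statement on their levels in the empty vector library and replicate 3.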
